A study of Homo sapiens with 17 samples.

Results

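Cells that carried the mCherry reporter without GFP (GFP-mCherry+) were compared at day 25 of differentiation with cells that carried neither reporter (GFP-mCherry-, the double-negative cells). The comparison took 3 libraries of each population, 6 of the 17 libraries in the series, and covered the 13991 genes, of 20218 in the table, that reached 1 FPKM in at least 2 of the 6. Both were derived from H9 human embryonic stem cells carrying the reporters, and RNA was taken 25 days after differentiation began. The labels name the reporter line SHOX2. Which gene drives mCherry is not in them; MYH6, which encodes the α-myosin heavy chain, is taken here from knowledge of the study. They give every library 1 growth text, in which all cells first received CHIR99021, BMP4 and Activin A. A cardiomyocyte branch then received XAV939, and a sinoatrial branch received cucurbitacin, retinoic acid, SU5402, XAV939, Tyrphostin AG 490 and chidamide. From which branch each sorted population came is not stated, and every library carries the cell type label of sinoatrial node-like cells. All cells share a single parental line, so the libraries describe that line. GFP+mCherry+ cells of the same day entered the model only as another group that shares the estimate of spread, and day-40 libraries of both populations are set beside the day-25 values at the end.

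Cardiomyocytes contract through sarcomeres, in which myosin thick filaments pull on actin thin filaments that are anchored at the Z-disc. Calcium released from the sarcoplasmic reticulum through the ryanodine receptor binds troponin and starts the contraction, and the calcium pump SERCA2, held back by phospholamban, returns it to the store. Oxidation of fatty acids and sugars in mitochondria supplies the ATP, and creatine kinase carries it to the filaments. Directed cardiac differentiation of stem cells is known to leave other lineages behind, among them fibroblast, epicardial, endothelial and epithelial cells, and a sort on a cardiac reporter is used to set the muscle cells apart from them.

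Expression is given as FPKM, fragments scaled by transcript length and by the total mapped in the library, as deposited by the authors, so that levels of different genes can be set side by side per length. Values stand in the order of replicates 1, 2 and 3 of each population, numbers that follow the order of deposition and pair no libraries. Differences are on the log2(FPKM + 1) scale, GFP-mCherry+ minus GFP-mCherry-, with the standard error (SE) of limma's moderated test. That scale understates the change of genes with low levels. A gene was called at a Benjamini-Hochberg adjusted p under 0.05 over all 13991 genes. Nothing in the labels says that the libraries came from separate cultures, so each p-value reflects only how far the deposited libraries vary, and that variation may be technical. Read depth is unknown, because the table holds no counts.

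Of the 13991 genes, 4973 (35.5%) were called, 2112 higher (15.1%) and 2861 lower (20.4%) in GFP-mCherry+ cells. The largest differences were nearly all on one side. Among called genes, 81 were at least 4 log2 units higher in GFP-mCherry+ cells and 1 was at least 4 log2 units lower. At a size of 1 log2 unit or more the counts were 1107 higher and 1302 lower. The median over all genes was -0.11. Libraries of the populations did not overlap in 2940 genes on the higher side (21.0%) and 4187 genes on the lower side (29.9%). Libraries correlated at 0.963 to 0.976 within the GFP-mCherry+ group and 0.969 to 0.982 within the GFP-mCherry- group, against 0.848 to 0.905 between them (across genes, on the log2 scale). The first principal component held 76.1% of the variance and separated the populations. On the second, with 10.2%, replicate 1 of each population stood apart from the other 4 libraries. Without those 2 libraries 4300 genes were called, 1811 higher and 2489 lower. In 12 cases among the 6 libraries a gene was listed at 0 in 1 library while the others of its group held at least 5 FPKM, and such a 0 can be a failed estimate.

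The genes of the reporters were read first. MYH6 stood at 595, 646 and 765 FPKM in GFP-mCherry+ libraries, against 6.05, 7.09 and 5.04 FPKM in GFP-mCherry- libraries, a 110-fold ratio of means. The gene lies on chromosome 14 (hg19, 23851199 to 23877486), and its level is a check of the gate rather than a finding where mCherry reads it. SHOX2, a transcription factor of the sinoatrial node and the gene of the GFP reporter, stood at 1.73, 0.901 and 1.34 FPKM, against 0.323, 0.415 and 0.545 FPKM in GFP-mCherry- libraries, while GFP+mCherry+ libraries averaged 91.8 ± 45.1 FPKM (SD, n = 3). Its difference between the GFP-negative populations missed the threshold (0.69 ± 0.32 SE, limma adjusted p = 0.12), although the libraries did not overlap. It passed with a pseudocount of 0.1 (1.41, adjusted p = 0.0159) and in the fit of the 6 libraries alone (0.69, adjusted p = 0.0291). The highest library of either GFP-negative population was far below the GFP+mCherry+ mean.

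The cardiomyocyte name was checked against 7 markers. All 7 (TNNT2, MYH6, MYL7, ACTN2, MYBPC3, TTN and RYR2) were higher in GFP-mCherry+ cells, although MYH6 is no support for the name where it drives the sorted reporter. Their summed level was 19155 to 23476 FPKM, against 577 to 769 FPKM in GFP-mCherry- cells. The ranges do not overlap, and the double-negative libraries still held cardiomyocyte transcripts. Fewer cells of a type and less RNA per cell cannot be told apart in such bulk libraries. Of the other lineages, fibroblast, epithelial, epicardial and endothelial markers had lower sums in GFP-mCherry+ libraries. The 5 fibroblast markers summed to 2411 to 3440 FPKM there, against 5990 to 7415 FPKM, the 3 epithelial ones to 253 to 413 FPKM, against 1030 to 1264 FPKM, and the 4 epicardial ones to 38.8 to 68.6 FPKM, against 216 to 311 FPKM. The 3 pluripotent markers summed to 0.17 to 1.62 FPKM, against 3.85 to 5.14 FPKM. The skeletal muscle markers MYOD1, MYOG and MYF5 summed to 0.0809 to 0.599 FPKM in GFP-mCherry+ libraries, against 0.041 to 0.0743 FPKM in GFP-mCherry- libraries. These sums were higher in GFP-mCherry+ libraries without overlap, but none of the markers passed the level filter. MYF5 was listed at 0 in all 6 libraries. Of 5 tested genes on the wider skeletal muscle list, 2 were called higher (40%, against 15.1% of all genes) and none lower. The higher ones were TNNT3 and TNNC2, the fast-skeletal troponins T and C. TNNT3 had 6.32, 11.9 and 5.39 FPKM in GFP-mCherry+ libraries, against 1.48, 1.84 and 1.43 FPKM in GFP-mCherry- libraries (1.72 ± 0.39, adjusted p = 0.0061), and TNNC2 differed by 1.36 ± 0.21 (adjusted p = 0.000679). The 4 endothelial markers in the table summed to 15.7 to 38.4 FPKM, against 43.3 to 73.8 FPKM in GFP-mCherry- libraries, and the 4 smooth muscle markers to 802 to 1149 FPKM, against 354 to 898 FPKM, with overlap. Sums also overlapped for the endoderm markers (106 to 599 FPKM, against 244 to 458 FPKM), the neuronal markers (9.32 to 20.4 FPKM, against 11.2 to 32.7 FPKM) and the macrophage markers (1.22 to 9.43 FPKM, against 8.81 to 9.35 FPKM). The part of these differences in marker sums in the results that follow was not tested.

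**Figure D1:**
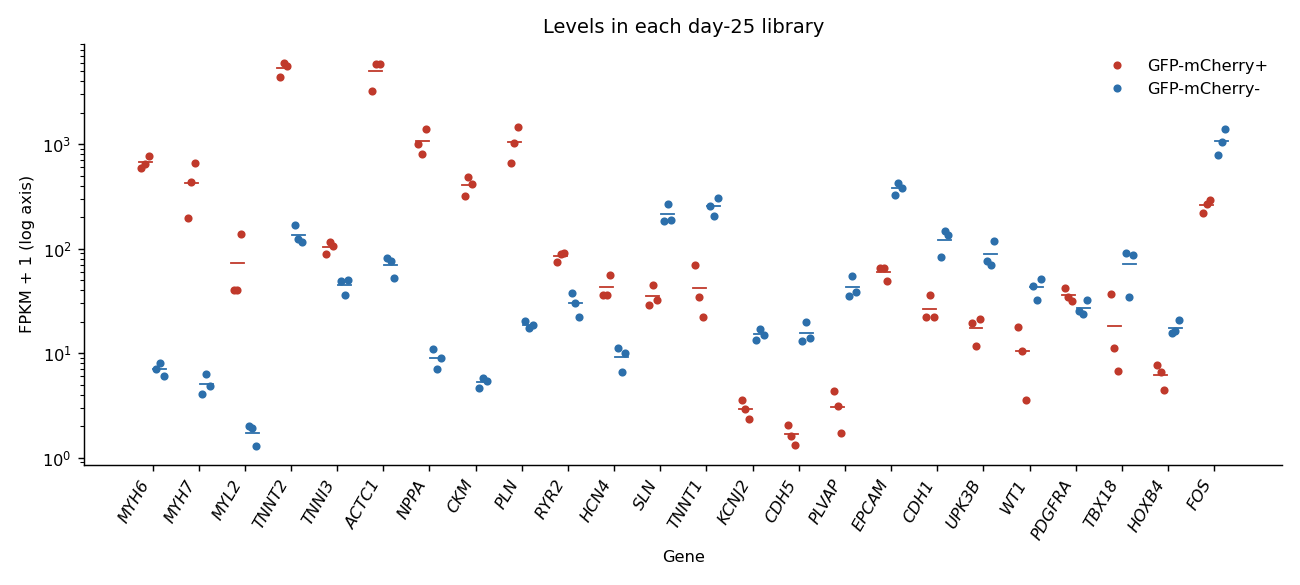
FPKM + 1 on a log axis for 24 genes in each of the 3 GFP-mCherry+ libraries (red, left) and the 3 GFP-mCherry- libraries (blue, right) of day 25; short lines are means. Sarcomere genes such as MYH6 and ACTC1 stand far above their double-negative levels, while endothelial, epithelial and epicardial genes such as CDH5, EPCAM and UPK3B stand below them.

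Genes of the myosin chains differed most among the lists, by median. All 8 tested myosin chain and myosin kinase genes were called higher, against 15.1% of all genes, with a median difference of 5.66. MYH6, a check of the gate where mCherry reads it, is among the 8. MYL7, the atrial regulatory light chain, was the most abundant, at 13177, 15490 and 15822 FPKM in GFP-mCherry+ libraries, against 545, 401 and 480 FPKM in GFP-mCherry- libraries (4.97 ± 0.32, adjusted p = 3.3e-06). MYL4, the atrial essential light chain, stood at 2742, 3391 and 4152 FPKM, against 62.8, 41.3 and 36.7 FPKM in GFP-mCherry- libraries (6.18 ± 0.26, adjusted p = 2.88e-07). MYL3, the ventricular and slow-muscle essential light chain, followed at 2089, 2455 and 2092 FPKM, against 30.4, 29.8 and 19.4 FPKM in GFP-mCherry- libraries (6.35 ± 0.37, adjusted p = 1.74e-06). In none of these genes did a library of one population reach the range of the other.

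MYH7 and MYL2 differed among GFP-mCherry+ replicates more than MYL7, MYL4 and MYL3 did. MYH7, the β-myosin heavy chain that predominates in the adult human ventricle, was at 195, 429 and 656 FPKM in GFP-mCherry+ libraries, against 3.1, 5.25 and 3.85 FPKM in GFP-mCherry- libraries (6.26 ± 0.46, adjusted p = 8.74e-06). MYL2, the ventricular regulatory light chain, was at 39.6, 39.1 and 137 FPKM, against 0.993, 0.921 and 0.306 FPKM in GFP-mCherry- libraries (5.15 ± 0.45, adjusted p = 2.51e-05). Replicate 3 was the highest GFP-mCherry+ library for both, and the atrial chain MYL7 exceeded MYL2 in every library. MYH6 and MYH7 are near-identical neighbours on chromosome 14, and so are the actin genes in sequence, so reads may have been split between copies.

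Thin filament genes followed, with a median of 3.79. Of 12 tested, 10 were called higher (83.3%, against 15.1% of all genes) and 1 lower (8.33%, against 20.4%). ACTC1, cardiac α-actin, stood at 3221, 5902 and 5870 FPKM in GFP-mCherry+ libraries, against 79.6, 75.7 and 51.2 FPKM in GFP-mCherry- libraries (6.13 ± 0.36, adjusted p = 1.74e-06). TNNT2, the cardiac troponin that ties the troponin complex to tropomyosin, had 4417, 5957 and 5610 FPKM, against 168, 123 and 114 FPKM in GFP-mCherry- libraries (5.30 ± 0.30, adjusted p = 1.42e-06). TNNC1, the calcium-binding troponin, had 1385, 1491 and 1978 FPKM, against 47.6, 27.8 and 31 FPKM in GFP-mCherry- libraries (5.49 ± 0.21, adjusted p = 2.49e-07). All 3 were separated without overlap. The inhibitory troponins moved unequally. TNNI1, the slow-skeletal and fetal form, was at 2584, 3355 and 3512 FPKM, against 289, 130 and 223 FPKM in GFP-mCherry- libraries (3.94 ± 0.34, adjusted p = 2.23e-05). TNNI3, the adult cardiac form, was at 87.5, 115 and 104 FPKM, against 47.6, 34.8 and 49 FPKM in GFP-mCherry- libraries (1.21 ± 0.31, adjusted p = 0.0127), so that the double-negative mean was 42.8% of the GFP-mCherry+ mean. Its call was lost without GFP-mCherry- replicate 2 (adjusted p = 0.0526). TPM1, the main cardiac tropomyosin, which other cell types also express, was at 1807, 1749 and 1400 FPKM even in GFP-mCherry- libraries, below 3698, 4441 and 5702 FPKM in GFP-mCherry+ libraries (1.47 ± 0.22, adjusted p = 0.000672).

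TNNT1, the slow-skeletal troponin T, went the other way. It stood at 68.4, 33.8 and 21 FPKM in GFP-mCherry+ libraries, against 256, 205 and 302 FPKM in GFP-mCherry- libraries (-2.75 ± 0.35, adjusted p = 0.000243). Every GFP-mCherry- library was above every GFP-mCherry+ library. It was the only called member of the 3 sarcomere lists that was lower.

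The Z-disc and thick filament list had 24 of 26 tested members called higher (92.3%, against 15.1% of all genes) and none lower, with a median of 4.54. MYBPC3, the cardiac myosin-binding protein C, stood at 412, 462 and 518 FPKM in GFP-mCherry+ libraries, against 5.53, 4.89 and 3.01 FPKM in GFP-mCherry- libraries (6.43 ± 0.34, adjusted p = 1.32e-06). LDB3, a Z-disc scaffold, had 243, 231 and 305 FPKM, against 3.09, 2.6 and 2.2 FPKM in GFP-mCherry- libraries (6.16 ± 0.24, adjusted p = 2.49e-07). CSRP3, a muscle LIM protein of the Z-disc, varied widely among the GFP-mCherry+ replicates, at 184, 332 and 659 FPKM, against 3.18, 3.35 and 2.79 FPKM in GFP-mCherry- libraries (6.39 ± 0.37, adjusted p = 1.74e-06). TTN, the giant spring of the sarcomere, had 42.1, 53.4 and 61.2 FPKM, against 1.24, 1.43 and 1.57 FPKM in GFP-mCherry- libraries. All of these were separated.

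The level left in double-negative libraries varied widely. Over the 42 members of the 3 sarcomere lists called higher, the GFP-mCherry- mean was a median 2.27% of the GFP-mCherry+ mean, between 0.768% for LMOD2, an actin filament nucleator, and 42.8% for TNNI3. It was 0.906% for MYH6, a check of the gate where mCherry reads it, and 35.8% for TPM1.

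**Figure D2:**
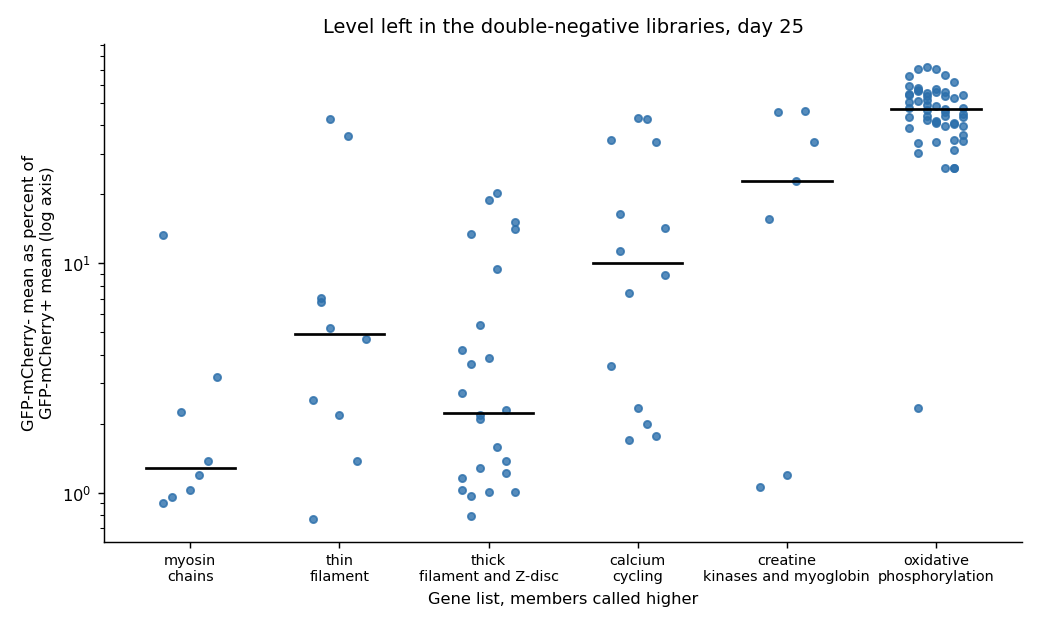
Mean level in GFP-mCherry- libraries as a percent of the mean in GFP-mCherry+ libraries (log axis), one point for each member called higher in 6 gene lists; horizontal lines are list medians. The medians run from 1.28% for myosin chains to 47.2% for oxidative phosphorylation.

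Promoter sequence is shown for 4 strongly higher genes, to display motif matches upstream of their start sites. The sequences are RefSeq's, GRCh38.p14, from 250 bases before to 50 bases after the start, 5′ to 3′ on the gene's strand. They lie at chr1:11847734-11848033 (minus strand), chr14:23408224-23408523 (minus strand), chr5:54455449-54455748 (plus strand) and chr7:44141283-44141582 (minus strand). Capitals mark matches, on either strand, to TATAAA, the MEF2 box, the CArG box or the letters AGATAA.
NPPA: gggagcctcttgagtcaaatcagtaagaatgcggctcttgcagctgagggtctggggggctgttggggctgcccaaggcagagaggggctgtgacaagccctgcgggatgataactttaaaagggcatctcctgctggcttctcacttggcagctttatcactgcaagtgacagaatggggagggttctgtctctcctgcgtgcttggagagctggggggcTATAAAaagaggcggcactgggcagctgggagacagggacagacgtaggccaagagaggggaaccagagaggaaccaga
MYH6: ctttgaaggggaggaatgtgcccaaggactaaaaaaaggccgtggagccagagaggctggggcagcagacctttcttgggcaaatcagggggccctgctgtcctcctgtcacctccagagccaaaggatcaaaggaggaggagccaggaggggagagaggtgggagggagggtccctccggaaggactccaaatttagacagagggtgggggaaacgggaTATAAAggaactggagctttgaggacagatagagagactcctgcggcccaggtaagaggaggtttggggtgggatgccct
HSPB3: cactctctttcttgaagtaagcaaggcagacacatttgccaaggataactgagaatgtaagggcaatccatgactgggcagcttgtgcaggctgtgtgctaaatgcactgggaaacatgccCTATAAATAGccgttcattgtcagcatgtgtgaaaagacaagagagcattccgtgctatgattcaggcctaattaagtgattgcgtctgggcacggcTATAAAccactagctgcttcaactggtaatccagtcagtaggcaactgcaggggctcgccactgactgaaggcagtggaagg
MYL7: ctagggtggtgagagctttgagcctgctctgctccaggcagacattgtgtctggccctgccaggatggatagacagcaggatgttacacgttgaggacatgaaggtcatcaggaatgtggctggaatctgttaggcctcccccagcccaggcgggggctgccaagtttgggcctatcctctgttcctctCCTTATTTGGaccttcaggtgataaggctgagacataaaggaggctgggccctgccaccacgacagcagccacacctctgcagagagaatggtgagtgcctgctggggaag
NPPA and MYH6 each held a TATAAA match, beginning 29 and 30 bases before the start. HSPB3, a small heat shock protein gene of muscle, held TATAAA 32 bases before its start and, farther up, a MEF2 box match that contains another TATAAA. MYL7 held a CArG box match 61 bases before its start. Of the 35116 promoters in the table, 11.5% held TATAAA, 2.99% a MEF2 box, 1.29% a CArG box and 10.3% the letters AGATAA. A search for CATTCC matched 14.0% of them, and one for CAAGTG matched 11.5%; these are not in capitals. A match describes these letters only. The 4 genes were chosen after their sequences were seen, and shares of motifs in called genes are not given because only 79.6% of tested genes matched a promoter.

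Of 7 tested genes of the natriuretic peptide system, 2 were called higher, 2 lower and 3 not at all. That is 28.6% in each direction, against 15.1% higher and 20.4% lower over all genes. NPPA, which encodes atrial natriuretic peptide and lies on chromosome 1 (hg19, 11905766 to 11908402), had the largest log2 difference of all genes the naming rule admitted. It stood at 992, 811 and 1399 FPKM in GFP-mCherry+ libraries, against 10, 6.04 and 7.9 FPKM in GFP-mCherry- libraries (6.88 ± 0.21, adjusted p = 1.29e-07). CORIN, the protease that activates the peptide, had 88.6, 83.4 and 127 FPKM, against 1.44, 1.33 and 1.07 FPKM in GFP-mCherry- libraries (5.44 ± 0.22, adjusted p = 2.52e-07). Peptide and protease were thus separated by wide gaps. NPPB, the second cardiac peptide gene, had 149, 94.5 and 67.8 FPKM, against 58, 57.3 and 71 FPKM in GFP-mCherry- libraries, with overlapping groups and no call (adjusted p = 0.233). The lower members were receptors. NPR1, the guanylyl cyclase receptor, was at 2.19, 1.05 and 0.357 FPKM, against 8.51, 7.18 and 8.34 FPKM in GFP-mCherry- libraries (-2.12 ± 0.29, adjusted p = 0.000373). NPR3, the clearance receptor, was at 4.08, 2.07 and 0.978 FPKM, against 14.6, 11 and 21.6 FPKM in GFP-mCherry- libraries (-2.36 ± 0.34, adjusted p = 0.000451).

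Among 27 cardiac transcription factors, 20 were called higher (74.1%, against 15.1% of all genes) and 2 lower (7.41%, against 20.4%). Their median was 1.18. NKX2-5, the homeobox factor of the working myocardium, was at 149, 186 and 215 FPKM in GFP-mCherry+ libraries, against 2.96, 2.86 and 2.93 FPKM in GFP-mCherry- libraries (5.54 ± 0.21, adjusted p = 2.49e-07). SMYD1, a muscle methyltransferase needed for heart development in mice, had 207, 250 and 295 FPKM, against 2.76, 2.99 and 2.84 FPKM in GFP-mCherry- libraries (6.01 ± 0.26, adjusted p = 3.11e-07). MYOCD, a coactivator of serum response factor, had 31.4, 33 and 47.8 FPKM, against 0.725, 0.568 and 0.349 FPKM in GFP-mCherry- libraries (4.62 ± 0.26, adjusted p = 1.42e-06). No double-negative library came near the GFP-mCherry+ range. IRX4, a ventricular homeobox factor, had 53.8, 76.4 and 52.7 FPKM, against 1.15, 0.987 and 0.507 FPKM in GFP-mCherry- libraries (5.04 ± 0.43, adjusted p = 2.13e-05). Broadly expressed members differed less. GATA4, a zinc-finger factor of heart and gut, had 120, 130 and 123 FPKM, against 69.4, 42.1 and 71.1 FPKM in GFP-mCherry- libraries (1.06 ± 0.26, adjusted p = 0.00936), and GATA6, its relative, differed by 0.44 ± 0.15 (adjusted p = 0.0401), a call lost without any 1 library other than GFP-mCherry+ replicate 1 or GFP-mCherry- replicate 3 (adjusted p between 0.106 and 0.129). TBX5, a T-box factor of atria and left ventricle, was higher by 1.61 ± 0.28 (adjusted p = 0.00158). The 2 lower members were HEY1, a Notch target of atrial muscle (-1.13 ± 0.18, adjusted p = 0.000808), and NR2F2, an atrial identity factor also expressed in venous endothelium (-0.75 ± 0.18, adjusted p = 0.00789).

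Sinoatrial factors did not follow one direction, with 4 of 13 tested members called higher and 4 lower. That is 30.8% each way, against 15.1% higher and 20.4% lower over all genes. TBX18 is also on the epicardial list, and BMP2 and BMP4 are also on the Wnt, BMP and TGF-β list. TBX18, a factor of the sinus venosus and the epicardium, was at 35.6, 10.3 and 5.78 FPKM in GFP-mCherry+ libraries, against 90.1, 33.8 and 85.2 FPKM in GFP-mCherry- libraries (-2.20 ± 0.57, adjusted p = 0.0124), with 1 library of each population overlapping. ISL1, a factor of second heart field and node progenitors, was at 6.13, 3.52 and 2.94 FPKM, against 12.5, 15.1 and 7.99 FPKM in GFP-mCherry- libraries (-1.31 ± 0.32, adjusted p = 0.0089). TBX3, the node's repressor of chamber genes, overlapped between populations (-0.36 ± 0.22, adjusted p = 0.239). BMP2, a ligand of the atrioventricular canal, was at 16.2, 17.2 and 33.4 FPKM, against 5.24, 3.62 and 6.28 FPKM in GFP-mCherry- libraries (1.89 ± 0.27, adjusted p = 0.000432). VSNL1, a neuronal calcium sensor found in the node, was also called higher (2.62 ± 0.38, adjusted p = 0.00052).

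Channels of the pacemaker current and of rhythm were mostly higher. Of 12 tested pacemaker genes, 8 were called higher (66.7%, against 15.1% of all genes) and 1 lower (8.33%, against 20.4%). HCN4, the main funny-current channel, stood at 35, 35.1 and 55.1 FPKM in GFP-mCherry+ libraries, against 10.1, 5.61 and 9 FPKM in GFP-mCherry- libraries (2.21 ± 0.25, adjusted p = 0.000121). POPDC2, a cyclic-AMP-binding membrane protein of pacemaker and working muscle, had 421, 454 and 778 FPKM, against 22.1, 8.94 and 9.19 FPKM in GFP-mCherry- libraries (5.32 ± 0.33, adjusted p = 2.59e-06). CACNA1G, a T-type calcium channel, had 19.4, 21.4 and 35 FPKM, against 2.9, 3.17 and 3.41 FPKM in GFP-mCherry- libraries (2.62 ± 0.24, adjusted p = 3.09e-05). Its relative CACNA1H had 21.8, 18.3 and 9.23 FPKM, against 23.6, 27.8 and 31.6 FPKM in GFP-mCherry- libraries (-0.79 ± 0.28, adjusted p = 0.0488), a call lost without GFP-mCherry+ replicate 2 or 3 and without any GFP-mCherry- replicate (limma adjusted p between 0.0583 and 0.147).

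Sodium and potassium channel genes had 11 of 18 members called higher (61.1%, against 15.1% of all genes) and 4 lower (22.2%, near the 20.4% of all genes). KCNIP2, a subunit of the transient outward current, had 54.9, 88.7 and 86.5 FPKM in GFP-mCherry+ libraries, against 3.66, 3.51 and 1.47 FPKM in GFP-mCherry- libraries (4.35 ± 0.32, adjusted p = 7.97e-06). KCNH2, the rapid delayed rectifier, was higher by 1.69 ± 0.19 (adjusted p = 0.000103). Of 7 inward rectifier genes on this list and the pacemaker list, 5 were called higher (KCNJ4, KCNJ5, KCNJ8, KCNJ11 and KCNJ12), 1 was called lower and KCNJ3 was not called. KCNJ2, the lower one, which sets the resting potential in ventricular muscle, was at 2.55, 1.93 and 1.34 FPKM, against 12.3, 16 and 14 FPKM in GFP-mCherry- libraries (-2.38 ± 0.21, adjusted p = 2.28e-05), without overlap. KCNJ5, a subunit of the acetylcholine-gated channel, was at 13.3, 16.9 and 28.8 FPKM, against 1.58, 1.92 and 1.58 FPKM in GFP-mCherry- libraries (2.87 ± 0.26, adjusted p = 3.05e-05). The other lower members were KCNK3, KCNA5 and SCN3B, at differences of -1.46, -0.86 and -0.84. The KCNA5 call was lost without GFP-mCherry+ replicate 2 (limma adjusted p = 0.0587) and without GFP-mCherry- replicate 3 (adjusted p = 0.0628), and the SCN3B call in the fit of all 17 libraries (adjusted p = 0.0708).

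Calcium handling genes were called higher in 14 of 20 tested members (70%, against 15.1% of all genes) and lower in 1 (5%, against 20.4%). Their median was 2.03. PLN, phospholamban, was at 655, 1022 and 1450 FPKM in GFP-mCherry+ libraries, against 19.3, 16.4 and 17.4 FPKM in GFP-mCherry- libraries (5.73 ± 0.31, adjusted p = 1.32e-06). ATP2A2, the SERCA2 pump it restrains, had 518, 547 and 630 FPKM, against 102, 96.7 and 80.8 FPKM in GFP-mCherry- libraries (2.59 ± 0.16, adjusted p = 2.93e-06). SLC8A1, the sodium-calcium exchanger, had 159, 172 and 217 FPKM, against 5.86, 7.01 and 6.65 FPKM in GFP-mCherry- libraries (4.60 ± 0.25, adjusted p = 1.42e-06). In double-negative cells the pump kept a larger share of its GFP-mCherry+ level than its inhibitor and the exchanger did. RYR2, the ryanodine receptor, had 74.3, 88.7 and 89.7 FPKM, against 36.5, 29.2 and 21.2 FPKM in GFP-mCherry- libraries (1.54 ± 0.20, adjusted p = 0.000257), the smallest difference among the 7 cardiomyocyte markers. SLN, sarcolipin, the atrial inhibitor of the same pump, was lower, at 28, 43.9 and 31.1 FPKM, against 183, 266 and 188 FPKM in GFP-mCherry- libraries (-2.60 ± 0.30, adjusted p = 0.000137). All SLN values of the double-negative libraries lay above all those of GFP-mCherry+ libraries.

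Cell contact genes of the intercalated disc were mixed. Of 14 tested, 6 were called higher (42.9%, against 15.1% of all genes) and 4 lower (28.6%, against 20.4%). GJA5, connexin 40 of atrial muscle and the conduction system, was at 47.6, 38.4 and 45.4 FPKM in GFP-mCherry+ libraries, against 4.04, 1.66 and 1.43 FPKM in GFP-mCherry- libraries (3.80 ± 0.33, adjusted p = 2.23e-05). CDH2, N-cadherin, had 123, 99.4 and 116 FPKM, against 40.5, 28 and 27.3 FPKM in GFP-mCherry- libraries (1.80 ± 0.19, adjusted p = 9.31e-05). PKP2, a desmosomal plakophilin, was higher as well, at 110, 124 and 145 FPKM, against 71.7, 60.1 and 59.3 FPKM in GFP-mCherry- libraries (0.97 ± 0.15, adjusted p = 0.000631). The desmosomal cadherins were lower. DSG2 was at 45.5, 40.7 and 39.8 FPKM, against 80.4, 133 and 125 FPKM in GFP-mCherry- libraries (-1.38 ± 0.19, adjusted p = 0.000354), and DSC2 at 23.5, 21.6 and 18.5 FPKM, against 40.8, 63.5 and 49.6 FPKM. GJA1, connexin 43, was lower by 0.81 on the log2 scale at 74.8, 82.7 and 73.6 FPKM, against 113, 127 and 176 FPKM in GFP-mCherry- libraries, a call lost without GFP-mCherry+ replicate 3 (adjusted p = 0.0579), without GFP-mCherry- replicate 3 (adjusted p = 0.0844) and with median-of-ratios scaling (adjusted p = 0.0654).

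Genes of energy metabolism were mostly higher in GFP-mCherry+ cells. Of 58 tested oxidative phosphorylation genes, 55 were called higher (94.8%, against 15.1% of all genes) and none lower. Their median was 1.06, against -0.11 over all genes, with a range of 0.17 to 3.82. CYCS, cytochrome c, stood at 110, 116 and 111 FPKM in GFP-mCherry+ libraries, against 31, 25.1 and 32.3 FPKM in GFP-mCherry- libraries (1.90 ± 0.14, adjusted p = 7.95e-06). ATP5B, the catalytic subunit of ATP synthase, had 1722, 2039 and 1828 FPKM, against 691, 596 and 587 FPKM in GFP-mCherry- libraries (1.58 ± 0.15, adjusted p = 4.69e-05). COX6A2, the heart and muscle isoform of a cytochrome oxidase subunit, lay apart from its list at 21.8, 32.5 and 11.3 FPKM, against 0.225, 0.619 and 0.684 FPKM in GFP-mCherry- libraries (3.82 ± 0.39, adjusted p = 6.59e-05). PPARGC1A, the coactivator that drives mitochondrial biogenesis, had 11.1, 26.5 and 20.7 FPKM, against 0.912, 1.29 and 1.7 FPKM in GFP-mCherry- libraries (3.09 ± 0.38, adjusted p = 0.000195). Mitochondrial ribosome and biogenesis genes moved less. Of 27 tested, 11 were called higher (40.7%, against 15.1% of all genes) and 1 lower (3.7%, against 20.4%).

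Fatty acid and sugar pathways had 20 of 29 (69%) and 19 of 24 (79.2%) members called higher, against 15.1% of all genes. Called lower were 1 (3.45%) and 2 (8.33%), against 20.4% of all genes. FABP3, the heart fatty acid-binding protein, was at 423, 574 and 756 FPKM in GFP-mCherry+ libraries, against 26.8, 23.5 and 27.9 FPKM in GFP-mCherry- libraries (4.40 ± 0.21, adjusted p = 5.72e-07). PGAM2 and ENO3, the muscle forms of phosphoglycerate mutase and enolase, differed by 4.91 ± 0.30 (adjusted p = 2.2e-06) and 3.84 ± 0.31 (adjusted p = 1.51e-05). Glucose transporters parted. SLC2A4, the insulin-responsive GLUT4, had 16.2, 32.8 and 28.8 FPKM, against 2.1, 2.28 and 3 FPKM in GFP-mCherry- libraries (2.91 ± 0.35, adjusted p = 0.000167). SLC2A1, the ubiquitous GLUT1, had 581, 833 and 412 FPKM, against 1265, 2163 and 1519 FPKM in GFP-mCherry- libraries (-1.46 ± 0.29, adjusted p = 0.00297). SLC2A3, the high-affinity GLUT3, had 266, 299 and 161 FPKM, against 793, 998 and 692 FPKM in GFP-mCherry- libraries (-1.80 ± 0.32, adjusted p = 0.00164). Both were lower without overlap.

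All 7 tested genes of creatine and oxygen supply were called higher, against 15.1% of all genes. The count was 5 when the first replicate of each population was left out. CKM, muscle creatine kinase, was at 315, 483 and 417 FPKM in GFP-mCherry+ libraries, against 3.63, 4.83 and 4.36 FPKM in GFP-mCherry- libraries (6.25 ± 0.45, adjusted p = 7.8e-06). MB, myoglobin, had 199, 480 and 475 FPKM, against 3.73, 5.34 and 4.78 FPKM in GFP-mCherry- libraries (6.00 ± 0.34, adjusted p = 1.42e-06). SLC6A8, the creatine transporter, was higher by 2.07 ± 0.26 (adjusted p = 0.00023).

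**Figure D3:**
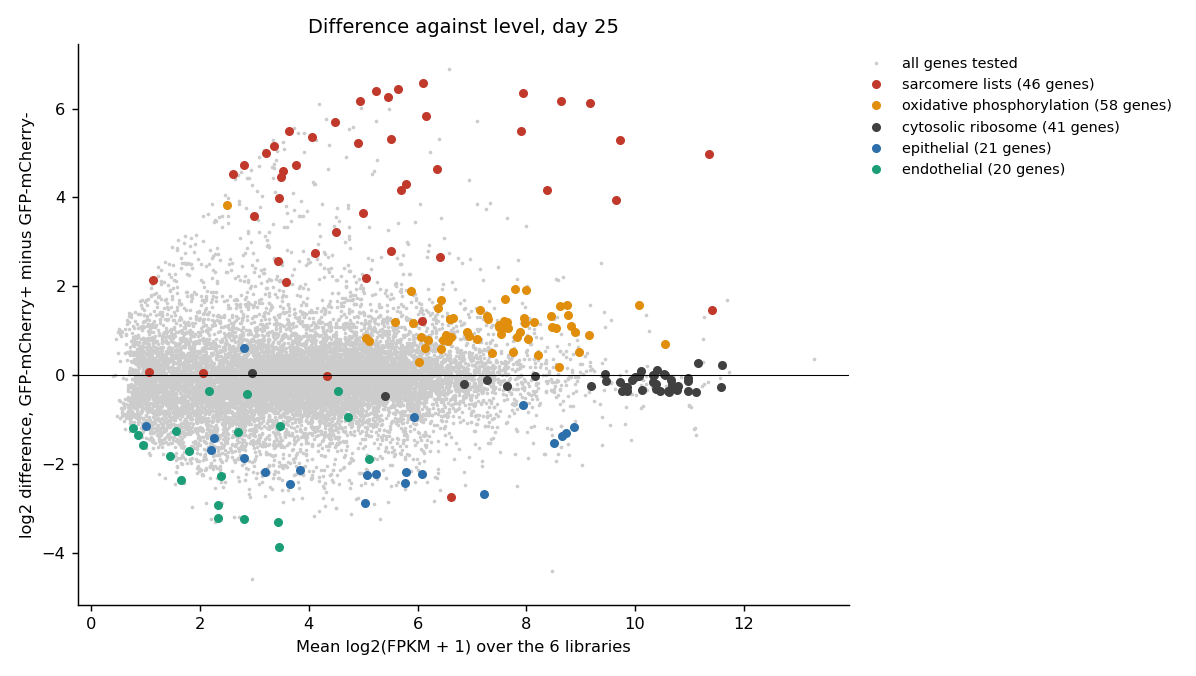
Difference between GFP-mCherry+ and GFP-mCherry- cells (log2) against the mean level over the 6 libraries for all 13991 genes (grey), with 5 gene groups coloured. Sarcomere genes reach above 6, oxidative phosphorylation genes form a band near 1, cytosolic ribosome genes lie about 0, and epithelial and endothelial genes lie mostly below.

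Lower in GFP-mCherry+ cells were, first, endothelial genes. Of 20 tested, 16 were called lower, against 20.4% of all genes, and none higher, with a median of -1.64; 10 were called lower where genes had to reach 5 FPKM. PLVAP, a protein of endothelial diaphragms, stood at 3.3, 2.14 and 0.721 FPKM in GFP-mCherry+ libraries, against 34.2, 53.6 and 37.7 FPKM in GFP-mCherry- libraries (-3.88 ± 0.44, adjusted p = 0.000121). CDH5, VE-cadherin, on chromosome 16 (hg19, 66400533 to 66438686), had 1.07, 0.625 and 0.32 FPKM, against 12.2, 19 and 13 FPKM in GFP-mCherry- libraries (-3.23 ± 0.23, adjusted p = 7.9e-06). EMCN, an endothelial sialomucin, had 0.853, 2.37 and 0.884 FPKM, against 10.7, 28.6 and 27.4 FPKM in GFP-mCherry- libraries (-3.24 ± 0.41, adjusted p = 0.000246). All 3 stood between 0.32 and 3.3 FPKM in GFP-mCherry+ libraries. KDR, the VEGF receptor, which mesodermal progenitors also carry, overlapped between populations at 12, 14 and 34.2 FPKM, against 23, 44.9 and 43.4 FPKM in GFP-mCherry- libraries (adjusted p = 0.282). VWF, the clotting factor carrier of mature endothelium, was below the level filter. PECAM1, another marker of the list, had no row under that name in the data used here.

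The 12 lower genes named by size also held ECSCR and ESM1, both of endothelium, at differences of -3.31 and -3.19. FGF23, a phosphate-regulating hormone of bone, was among them at 1.4, 1.34 and 0.819 FPKM in GFP-mCherry+ libraries, against 13.3, 25 and 20.1 FPKM in GFP-mCherry- libraries (-3.20 ± 0.28, adjusted p = 2.27e-05). SELV, a selenoprotein gene, had the largest lower difference among called genes, at 0.844, 0.505 and 0.407 FPKM, against 78.9, 10.3 and 60.7 FPKM in GFP-mCherry- libraries (-4.60 ± 0.61, adjusted p = 0.000325). Its GFP-mCherry- libraries ranged widely, with replicate 2 far below the others. NTRK2, the receptor of brain-derived neurotrophic factor, had 8.75, 9.64 and 3.82 FPKM, against 37.9, 86.5 and 74.6 FPKM in GFP-mCherry- libraries (adjusted p = 0.000574).

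Epithelial genes were lower in 18 of 21 tested members (85.7%, against 20.4% of all genes), with none higher and a median of -1.87. EPCAM, the epithelial adhesion molecule on chromosome 2 (hg19, 47572297 to 47614740), stood at 63.9, 63.6 and 48.2 FPKM in GFP-mCherry+ libraries, against 323, 425 and 381 FPKM in GFP-mCherry- libraries (-2.67 ± 0.19, adjusted p = 6.71e-06). CDH1, E-cadherin, had 21, 34.9 and 21.1 FPKM, against 83, 145 and 134 FPKM in GFP-mCherry- libraries (-2.19 ± 0.27, adjusted p = 0.000199). KRT7, a simple-epithelium keratin, had 15.5, 12.7 and 6.7 FPKM, against 92.2, 82.9 and 87.4 FPKM in GFP-mCherry- libraries (-2.88 ± 0.30, adjusted p = 7.87e-05). Groups did not overlap in any of the 3, and epithelial transcripts were still measured in GFP-mCherry+ libraries. SPINT1, an inhibitor of epithelial serine proteases, had the smallest adjusted p of the list (-2.24 ± 0.13, adjusted p = 1.47e-06).

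Epicardial and mesothelial genes were lower in 12 of 16 tested members (75%, against 20.4% of all genes), none higher, with a median of -2.14. WT1, the zinc-finger factor of the epicardium, was at 16.7, 9.39 and 2.58 FPKM in GFP-mCherry+ libraries, against 43.3, 31 and 50.6 FPKM in GFP-mCherry- libraries (-2.27 ± 0.46, adjusted p = 0.00363). BNC1, a zinc-finger gene of the mesothelium, had 30.8, 18.4 and 15.5 FPKM, against 93.2, 116 and 141 FPKM in GFP-mCherry- libraries (-2.42 ± 0.29, adjusted p = 0.00017). PODXL, a sialomucin of mesothelium and podocytes, had 69.7, 37.1 and 43.8 FPKM, against 250, 292 and 284 FPKM in GFP-mCherry- libraries (-2.48 ± 0.28, adjusted p = 0.000121). Each was separated, and WT1 varied most among GFP-mCherry+ libraries.

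Fibroblast and matrix genes differed by less. Of 32 tested, 16 were called lower (50%, against 20.4% of all genes) and 1 higher (3.12%, against 15.1%), with a median of -0.90. The lower count was 12 without a filter on low values and 20 with sample weights. COL3A1, a fibrillar collagen, stood at 1131, 1276 and 1912 FPKM in GFP-mCherry+ libraries, against 2771, 4151 and 3919 FPKM in GFP-mCherry- libraries (-1.34 ± 0.26, adjusted p = 0.00293). LUM, a matrix proteoglycan, had 219, 213 and 341 FPKM, against 852, 748 and 651 FPKM in GFP-mCherry- libraries (-1.56 ± 0.26, adjusted p = 0.00108). COL5A2, a regulator of collagen fibrils, had 69.1, 51.1 and 61.8 FPKM, against 191, 192 and 193 FPKM in GFP-mCherry- libraries (-1.66 ± 0.18, adjusted p = 8.33e-05). Collagen transcripts were plentiful in both populations. PDGFRA, a receptor of fibroblasts and of cardiac mesoderm, was not called at 41.3, 33.7 and 30.4 FPKM, against 24.5, 22.6 and 31.5 FPKM in GFP-mCherry- libraries (adjusted p = 0.103). VCAN, versican of the embryonic cardiac jelly, was the 1 higher member, at 207, 232 and 151 FPKM, against 53.7, 80.7 and 54.5 FPKM in GFP-mCherry- libraries (1.63 ± 0.25, adjusted p = 0.000718). FN1, fibronectin, was listed at 0 in GFP-mCherry+ replicate 3, beside 856 and 522 FPKM in the other 2, against 2042, 1690 and 1259 FPKM in GFP-mCherry- libraries; without that 0, FN1 was called lower at -1.29 (adjusted p = 0.00774).

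Smooth muscle genes were higher in 6 of 14 members (42.9%, against 15.1% of all genes) and lower in 2 (14.3%, below the 20.4% of all genes). ACTA2, smooth muscle α-actin, which immature heart muscle is known to express too, was at 565, 450 and 534 FPKM in GFP-mCherry+ libraries, against 295, 97.3 and 72.7 FPKM in GFP-mCherry- libraries (2.00 ± 0.42, adjusted p = 0.00427). CNN1, calponin, had 171, 185 and 255 FPKM, against 63.2, 44.6 and 48.1 FPKM in GFP-mCherry- libraries (1.94 ± 0.21, adjusted p = 9.92e-05). MYL9, a smooth muscle regulatory light chain, differed by 2.16 ± 0.23 (adjusted p = 7.88e-05). TAGLN, an actin-binding protein of the same cells, was not called, with 407, 164 and 173 FPKM, against 538, 212 and 249 FPKM in GFP-mCherry- libraries (adjusted p = 0.417). Replicate 1 held the highest TAGLN level of each population.

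**Figure D4:**
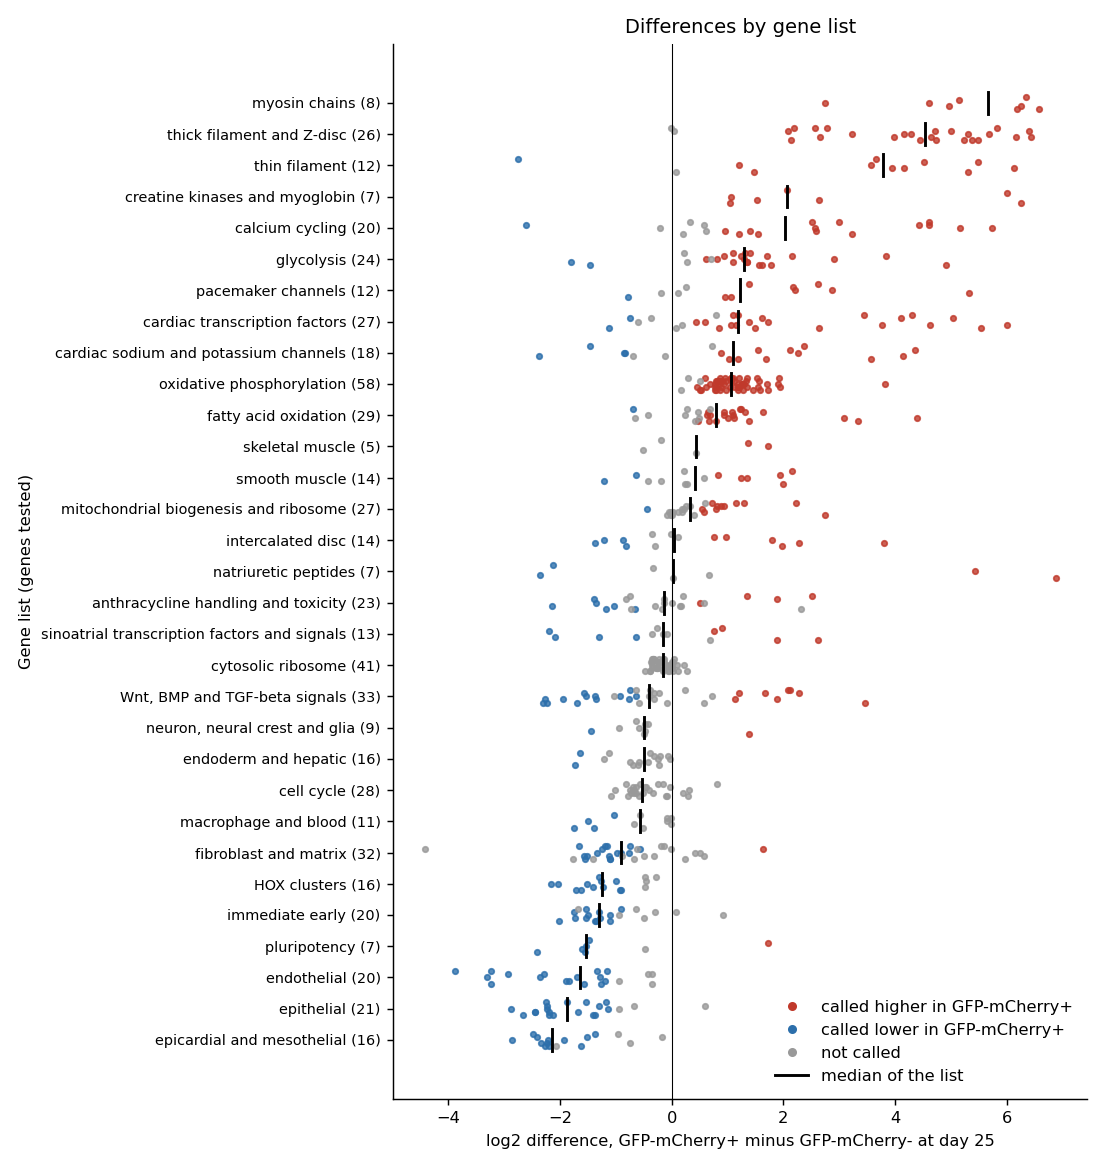
log2 difference between GFP-mCherry+ and GFP-mCherry- cells for the tested members of 31 gene lists, 1 point per gene; red is called higher, blue called lower, grey not called, and black bars are medians. Medians run from 5.66 for myosin chains to -2.14 for epicardial and mesothelial genes.

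Signalling genes were divided. Among 33 Wnt, BMP and TGF-β genes, 8 were called higher (24.2%, against 15.1% of all genes) and 13 lower (39.4%, against 20.4%). The median was -0.40. BMP7, a bone morphogenetic protein expressed in embryonic myocardium, was at 79.8, 72.2 and 80 FPKM in GFP-mCherry+ libraries, against 5.14, 8.07 and 5.41 FPKM in GFP-mCherry- libraries (3.46 ± 0.26, adjusted p = 8.38e-06). DKK3, a secreted member of the dickkopf family, had 180, 180 and 257 FPKM, against 55.6, 34.4 and 53.8 FPKM in GFP-mCherry- libraries (2.09 ± 0.21, adjusted p = 5.29e-05). ID1, an inhibitor of differentiation induced by BMP signals, was lower, at 44.5, 35.7 and 29.3 FPKM, against 147, 201 and 206 FPKM in GFP-mCherry- libraries (-2.31 ± 0.18, adjusted p = 1.31e-05). WNT3 and WNT6, ligands of the canonical pathway, were lower by 1.54 and 2.24 on the log2 scale (adjusted p = 0.000136 and 9.12e-05), and WNT5B, a noncanonical ligand, was higher by 2.11 ± 0.19 (adjusted p = 2.55e-05).

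HOX genes, which record position along the body axis, were lower in 12 of 16 tested members (75%, against 20.4% of all genes). None was higher, and the median was -1.25. HOXA3 was at 1.28, 0.841 and 0.549 FPKM in GFP-mCherry+ libraries, against 6.03, 8.1 and 8.06 FPKM in GFP-mCherry- libraries (-2.16 ± 0.21, adjusted p = 4.57e-05). HOXC4 had 3.75, 3.38 and 1.89 FPKM, against 10.5, 17.2 and 19.2 FPKM in GFP-mCherry- libraries (-2.04 ± 0.25, adjusted p = 0.000207). HOXB1, an anterior member, overlapped between the populations (-0.47 ± 0.36, adjusted p = 0.343).

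Immediate early genes, which cells switch on within minutes of a stimulus, were lower in 13 of 20 tested members (65%, against 20.4% of all genes). None was higher, and the median was -1.30. FOS stood at 216, 269 and 290 FPKM in GFP-mCherry+ libraries, against 778, 1040 and 1407 FPKM in GFP-mCherry- libraries (-2.02 ± 0.25, adjusted p = 0.000199). IER2, another early response gene, had 51.5, 52.4 and 63.6 FPKM, against 117, 144 and 173 FPKM in GFP-mCherry- libraries (-1.35 ± 0.17, adjusted p = 0.000241). Such genes are also known to respond to cell dissociation.

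Cell cycle genes and cytosolic ribosome genes gave no call. Among 28 cell cycle genes, limma called 0 at the adjusted threshold and 4 at an unadjusted p under 0.05, with a median of -0.54; with sample weights it called 13 lower, and without GFP-mCherry- replicate 1 it called 1 higher. MKI67, the proliferation antigen, was at 7.78, 3.45 and 4.41 FPKM in GFP-mCherry+ libraries, against 14.2, 5.79 and 5.8 FPKM in GFP-mCherry- libraries, and replicate 1 was the highest of each population. The summed level of the list was 425 to 881 FPKM, against 606 to 1402 FPKM, with overlap. Among 41 ribosomal protein genes, 0 were called, 6 had an unadjusted p under 0.05, 12 were called lower with sample weights, and the median was -0.16.

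Drug-handling genes are listed because the study's title concerns anthracycline cardiotoxicity. Of 23 tested, 4 were called higher (17.4%) and 6 lower (26.1%), near the 15.1% and 20.4% over all genes. SLC28A3, a nucleoside transporter, was at 4.85, 4.82 and 14.9 FPKM in GFP-mCherry+ libraries, against 0.335, 0.363 and 0.578 FPKM in GFP-mCherry- libraries (2.52 ± 0.47, adjusted p = 0.00226). SOD2, the mitochondrial superoxide dismutase, had 82.8, 103 and 110 FPKM, against 25, 23.2 and 28.8 FPKM in GFP-mCherry- libraries (1.89 ± 0.16, adjusted p = 2.09e-05). ABCB1, the P-glycoprotein exporter, had 1.42, 1.12 and 0.358 FPKM, against 7.98, 5.5 and 9.38 FPKM in GFP-mCherry- libraries (-2.15 ± 0.26, adjusted p = 0.000202). RARG, a retinoic acid receptor, had 13.2, 14.8 and 11.7 FPKM, against 27, 32.3 and 33.6 FPKM in GFP-mCherry- libraries (-1.17 ± 0.19, adjusted p = 0.000878). TOP2B, the topoisomerase that anthracyclines poison in heart muscle, was not called at 77.8, 76.8 and 67.7 FPKM, against 65.8, 72.5 and 61.4 FPKM in GFP-mCherry- libraries (0.15 ± 0.14, adjusted p = 0.443).

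Lists of further lineages differed in their share of calls. Endoderm and hepatic genes had 2 of 16 tested members called lower (12.5%, below the 20.4% of all genes) and none higher, and 5 lower without GFP-mCherry+ replicate 2. AFP, α-fetoprotein, had 162, 477 and 81.4 FPKM in GFP-mCherry+ libraries, against 202, 364 and 372 FPKM in GFP-mCherry- libraries, without a call (adjusted p = 0.352). The summed level of the endoderm list was 154 to 796 FPKM in GFP-mCherry+ libraries, against 365 to 634 FPKM in GFP-mCherry- libraries, with overlap. Macrophage and blood genes had 4 of 11 lower (36.4%, against 20.4% of all genes), and 2 without GFP-mCherry+ replicate 3. Their summed levels were 12.5 to 66.3 FPKM, against 68.2 to 81.3 FPKM. Pluripotency genes had 5 of 7 lower (71.4%, against 20.4% of all genes) and 1 higher (14.3%, near the 15.1% of all genes). Only 2 were lower where genes had to reach 5 FPKM. L1TD1, an RNA-binding protein of stem cells, was at 2.38, 1.16 and 0.818 FPKM in GFP-mCherry+ libraries, against 13.3, 11.8 and 9.97 FPKM in GFP-mCherry- libraries (-2.41 ± 0.24, adjusted p = 4.96e-05). NANOG, a core pluripotency factor, was listed at 0 in all 6 libraries. TDGF1, a NODAL coreceptor of early mesoderm and stem cells, was the higher member, at 2.99, 4.23 and 3.02 FPKM, against 0.163, 0.289 and 0.581 FPKM in GFP-mCherry- libraries (1.72 ± 0.35, adjusted p = 0.00376). Neural genes had 1 of 9 called in each direction (11.1%, below the shares of all genes). The higher one was PAX3 of the neural crest and somite (1.38 ± 0.32, adjusted p = 0.00667), and the lower one MAP2 of neuronal microtubules (-1.45 ± 0.25, adjusted p = 0.00141). Without GFP-mCherry+ replicate 1, 3 neural genes were lower.

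The same populations were sorted again at day 40. There 1945 genes were called higher (13.9%) and 2620 lower (18.7%), in a fit of all 17 libraries. The 13991 genes had passed a filter on day-25 libraries only. Day-25 calls came from a fit of the 9 libraries of that day, so the fits compared here are unlike. With all 17 libraries, 4261 genes were called at day 25. Of the 4973 genes called at day 25, 3220 were called in the same direction at day 40, which is 64.7% of the day-25 calls and 70.5% of the 4565 day-40 calls, and 4 (COL4A2, EHBP1L1, F10 and LZTS1) were called in the opposite direction. Limma called 0 genes for a change of the difference between days, and 886 had an unadjusted p under 0.05. The 4 had adjusted p between 0.198 and 0.461 in that test, and each lost its day-25 call under some alternative. RYR2 differed by 1.54 at day 25 and by 2.84 at day 40, and CDH5 by -3.23 at day 25 and by -1.24 at day 40, neither past the threshold for the change (adjusted p = 0.711 and 0.274). MYH6 was listed at 0 in GFP-mCherry+ replicate 3 of day 40, beside 628 and 520 FPKM in the other 2. Its smaller difference there (2.48, adjusted p = 0.26) rests in part on that value. The GFP-mCherry- libraries of day 40 held 41.9, 6.64 and 4.76 FPKM, the first above every GFP-mCherry- library of day 25.

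Libraries of double-negative cells at day 40 were uneven. The cardiomyocyte marker sum was 14381 to 24922 FPKM in GFP-mCherry+ libraries of day 40, against 544 to 2377 FPKM in GFP-mCherry- libraries, and replicate 1 of GFP-mCherry- cells held the highest of its group. Without that library 14 genes were called for the change between days, against 0 with all 17 libraries. No other single library left out gave as many. For CDH5, ESM1 and VTN, the library left out was the one of its group nearest the GFP-mCherry- levels of day 25. Leaving it out therefore widened their change, and these calls rest on that choice. The 7 with a more negative difference at day 25 included the endothelial genes CDH5, CD34 and ESM1, and the 7 with a more positive one included the collagens COL6A1 and COL6A2 and VTN, vitronectin. VTN was at 12.7, 16.8 and 11.9 FPKM in GFP-mCherry+ libraries of day 25, against 15.7, 16.1 and 10.9 FPKM in GFP-mCherry- libraries. At day 40 it had 8.79, 11 and 8.59 FPKM in GFP-mCherry+ libraries, against 29.1, 74.3 and 57.8 FPKM in GFP-mCherry- libraries. The change of VTN was 2.64 ± 0.30 without replicate 1 of GFP-mCherry- cells at day 40 (limma adjusted p = 0.00413). With all 17 libraries it was not called.

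**Figure D5:**
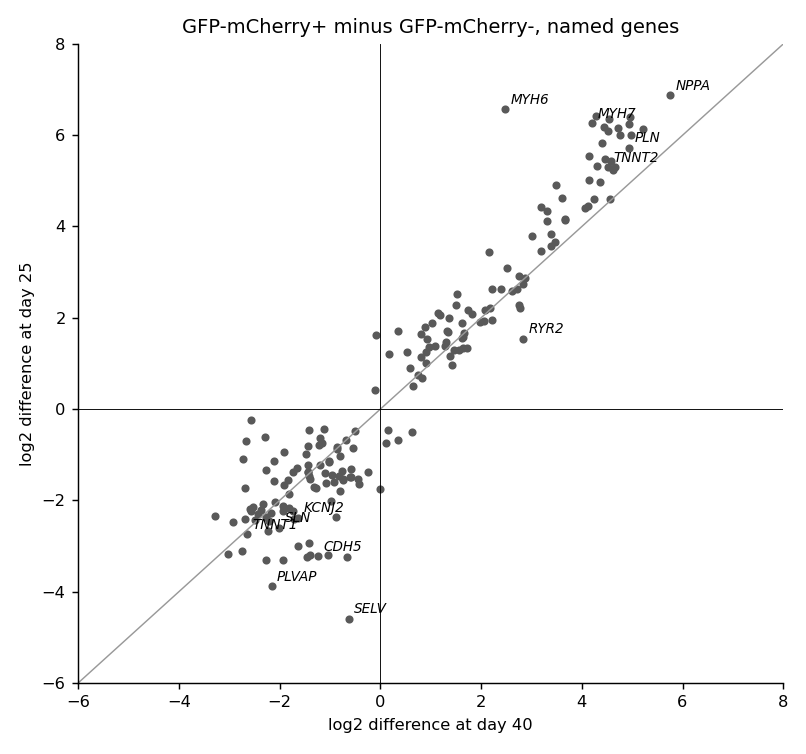
log2 difference between GFP-mCherry+ and GFP-mCherry- cells at day 25 (vertical) against day 40 (horizontal) for the 191 named genes, most of which were named for their day-25 values; the diagonal marks equal differences. Muscle genes lie mostly above the diagonal and MYH6 farther left, with a value listed at 0 in 1 day-40 library.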

How the data were processed

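RNA-seq libraries were made from total RNA, per the labels' protocols. The authors deposited FPKM values per gene, made with bcl2fastq 2.19, cutadapt, STAR 2.5.2b and Cufflinks 2.1.1 on hg19, per the submitters' processing notes. Strand handling is not given in the sources used here, so reads of overlapping or antisense genes cannot be told apart. Rows that shared a gene name were merged. Genes with at least 1 FPKM in 2 or more of the 6 libraries were tested with limma 3.58.1 (R 4.3.3) on log2(FPKM + 1), with group means over the 9 libraries of day 25, a variance trend and Benjamini-Hochberg adjustment. The change between days and the day-40 difference were fitted on all 17 libraries. The fit was tested on simulated data with normal noise over 13991 genes, with 100 genes changed at each size. All changed genes had a mean above 2 on the log2 scale. The fit called 62% of genes changed by 1 log2 unit, 89% of those changed by 2, and 8 unchanged genes. Far more genes were called in the real data, so these rates may not hold for them. Genes named were SHOX2, MYH6, TNNT2, NKX2-5, cell type markers, the 12 largest called differences each way with at least 5 FPKM and no overlap, and up to 5 called members of each list by adjusted p, with members against their list's direction. Others (MYL2, TNNI1, TNNI3, TPM1, FN1, NPPB, GATA4, GATA6, TBX5, IRX4, TBX18, TBX3, COX6A2, LMOD2, KRT7, WNT3, HOXB1, MKI67, TOP2B, further KCNJ genes and genes of the change between days) were chosen after their values were seen. Members and lists were chosen with earlier results of these data known.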

Additional observations from a re-analysis of the deposited data

How the results depend on the processing

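Counts of called genes kept within 1.5 times of 4973 under another pseudocount (0.1), other filters, other scalings, the 6 libraries alone, all 17 libraries, and zeros set to missing; with sample quality weights 7590 genes were called, 3214 higher and 4376 lower, and the cause was not tested. Leaving out 1 library at a time gave 3707 to 4612 called genes, 1630 to 2031 higher and 2077 to 2728 lower. Leaving out the first replicate of each population together, a choice made after seeing the data, gave 4300. Median-of-ratios scaling gave 2593 higher and 2413 lower, with a median over all genes of -0.02. For the change between days, leaving out 1 library gave 0 to 14 called genes: 14 without replicate 1 of GFP-mCherry- cells at day 40, 1 (APOA2) without replicate 3 of GFP-mCherry+ cells at day 25 and 1 (CLEC1B) without replicate 1 of GFP-mCherry- cells at day 25. Of 191 named genes 179 were called; 11 lost the call under some alternative (CACNA1H, AIF1, GJA1, MRPL12, MRPL3, SCN3B, SLC22A5, SOD1, CD74, KCNA5 and LIN28A) and 0 of the 179 changed sign. Of 27 genes named outside the rule 21 were called, and 7 of these lost the call under some alternative (GATA6, TNNI3, KCNJ4, COL4A2, EHBP1L1, F10 and LZTS1). Calls were gained by SHOX2 (pseudocount of 0.1; 6 libraries alone), PDGFRA (median-of-ratios scaling), KDR and TBX3 (weights), AFP (without GFP-mCherry+ replicate 2) and FN1 (zeros set to missing). Among genes not called, the difference turned sign with weights for AFP (0.00), APOA1 (0.13) and TTR (0.25), and APOA1 ran from -0.60 to 0.15 over the libraries left out, turning without GFP-mCherry+ replicate 3, where HOXB1, at -0.73 to 0.01 over the libraries left out, also turned. No paired analysis was possible because the labels give no number shared between groups, and the replicate numbers used here follow the order of deposition. Depth is unknown, so the precision of low values cannot be given.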
